A study of Homo sapiens with 6 samples.

Results

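The IL6 family of cytokines signals through receptors that share the transducer gp130, encoded by IL6ST. The genes described here are 4 ligands (IL6, LIF, IL11 and CLCF1), 4 receptor subunits (IL6R, IL6ST, LIFR and OSMR), the transcription factor STAT3 and its feedback inhibitor SOCS3. They were chosen by gene symbol, and all 10 were found among the 19727 genes of the deposited table. The choice was made with the group differences of these libraries known, so the values of the 10 genes are given as a description, with no p for a single gene.

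DU145 cells, a human prostate cancer line in wide use, lack the androgen receptor. The libraries were 3 of DU145 cells transfected with lentivirus-NC, whose genotype is labelled normal, and 3 of DU145 cells transfected with lentivirus-circCSPP1 and labelled circCSPP1 overexpression, a circular RNA derived from exons of the gene CSPP1. By the study's methods, all cells transfected with lentivirus were selected with puromycin into stable lines, which both groups share, while the vector differed between the groups, so that an effect of the insert and of a stable line cannot be told apart. Nothing states that the 3 libraries of a group came from separate cultures, and a p then measures only the spread between these libraries.

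A ligand of this family brings gp130 together with a second receptor chain. IL6R is the chain that binds IL6 itself, LIFR is used by LIF and by CLCF1, and OSMR pairs with gp130 to bind oncostatin M. The Janus kinases bound to these chains then phosphorylate STAT3, which enters the nucleus and activates its targets, among them SOCS3, whose protein blocks the kinases and gp130. DU145 cells are known for making IL6 themselves and for carrying active STAT3.

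Depth was read from the low FPKM values (fragments scaled to transcript length and to the size of the library) and lay between 28800000 and 36700000 fragments per library, with groups that overlapped. CSPP1 measured 9.54 ± 0.493 FPKM with lentivirus-NC against 19.5 ± 4.44 FPKM with lentivirus-circCSPP1 (mean ± SD, n = 3 in each group), in which linear transcript, circular RNA and vector cannot be told apart. Of the epithelial markers, KRT8 lay at 1085 to 1138 FPKM with lentivirus-NC against 380 to 456 FPKM with lentivirus-circCSPP1, KRT18 at 612 to 634 against 319 to 384 FPKM, EPCAM at 19.5 to 21.3 against 10.6 to 13.7 FPKM and CDH1 at 9.81 to 11.5 against 2.44 to 3.41 FPKM. KRT7 went the other way, at 1618 to 1706 against 1997 to 2753 FPKM, so the groups stood apart in each of these 5 genes. The mesenchymal marker VIM lay at 1107 to 1124 against 1018 to 1158 FPKM, and CDH2 was below 0.1 FPKM in every library. The prostate luminal markers KLK3, KLK2 and TMPRSS2, the leukocyte markers PTPRC and CD3E and the fibroblast markers LUM and COL1A2 were below 0.1 FPKM in all 6 libraries. Over the 4 fibroblast markers, 1 of which (COL1A1) reached a mean of 1 FPKM, the summed level was 2.64 to 4.14 FPKM with lentivirus-NC and 1.01 to 1.38 FPKM with lentivirus-circCSPP1, and the part of these marker differences in the results was not tested. Replicate 1 of lentivirus-circCSPP1 stood apart: over 12265 genes, its departure from the other two libraries of its group had a Spearman correlation of 0.789 with the GC content of the transcript (across genes, which are not independent replicates), against -0.0516 to 0.0959 in the lentivirus-NC libraries and -0.735 and -0.490 in replicates 2 and 3 of its own group. Where leaving out this library changed a call among the 10 genes, the result is given with and without it. For the lists of other pathway genes below, only the total count is given both ways. The counts of single lists are those of all 6 libraries, and they may differ without this library.

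The study proposes that circCSPP1 binds the microRNA miR-520h, so the match of the 3′ UTRs of the family to that microRNA is shown first. The mature sequence (RefSeq, GRCh38.p14) is given with its seed, bases 2 to 8, in capitals, followed by stretches of the 3′ UTRs of LIF, CLCF1, IL11 and IL6ST that hold the 7 bases complementary to the seed, CACTTTG, in capitals within 24 bases of the sense strand (GENCODE release 29, the longest 3′ UTR of each gene). The base named with each stretch is the first base of the match in capitals, and the stretch itself begins before it.
hsa-miR-520h: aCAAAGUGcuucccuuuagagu
LIF, from base 299 of the 3′ UTR: cccttgctCACTTTGtgcagtgaa
LIF, from base 2039: ttttcactCACTTTGcacctttcc
CLCF1, from base 44: cctgctccCACTTTGtgagagcca
IL11, from base 1256: aatcctggCACTTTGggaggacga
IL6ST, from base 4399: aaacttcaCACTTTGtaccattaa

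In all, 6 of the 10 genes held a match, whereas 22.0% of 19067 3′ UTRs held one. LIF and CLCF1, whose levels were higher with lentivirus-circCSPP1, held matches, and so did STAT3, whose level was lower, and IL11, IL6R and IL6ST, whose groups overlapped. IL6, SOCS3, LIFR and OSMR held no match. A match is a stretch of letters and not a shown site of binding, and longer 3′ UTRs hold more matches by their length alone: those of the family ran from 429 nt for IL6 to 7641 nt for IL6ST.

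All 10 genes averaged 1 FPKM or more across the libraries, the limit for entering the fit of 12322 genes (limma on log2(FPKM + 1), Benjamini-Hochberg adjustment over all genes fitted). IL6, STAT3 and SOCS3 were lower and LIF was higher with lentivirus-circCSPP1 at an adjusted p under 0.05, which makes 4 of 10, beside 11.4% of all tested genes (4.69% higher and 6.66% lower). In 5 of the 10, CLCF1 being the fifth, the groups did not overlap, beside 36.4% of all tested genes. Because the genes were chosen with this contrast known, nothing is read from these counts. In cultured cells measured in bulk, fewer cells expressing a gene and less RNA per cell cannot be told apart.

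**Figure D1:**
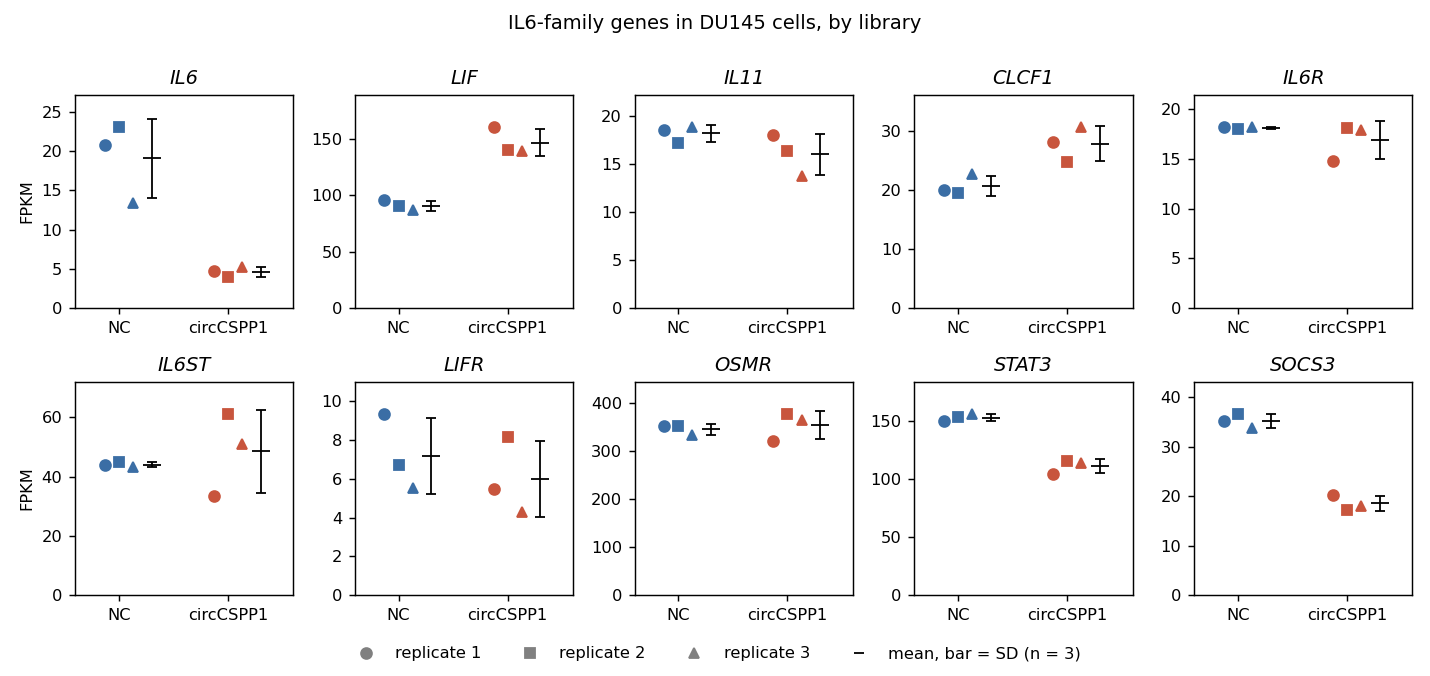
FPKM of the 10 genes in each library, with NC for lentivirus-NC and circCSPP1 for lentivirus-circCSPP1 on the x axis, 1 point per library and the mean with its SD (n = 3) beside the points. The groups stand apart in IL6, LIF, CLCF1, STAT3 and SOCS3, and replicate 1 of lentivirus-circCSPP1 is the lowest of its group in IL6ST, OSMR and IL6R.

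Among the ligands, IL6 differed most. IL6, the founding cytokine of the family, is a plus-strand gene of chromosome 7 in the GRCh38 build, with GENCODE start 22725884 and end 22732002. Its levels with lentivirus-NC were 20.7, 23.1 and 13.4 FPKM, and with lentivirus-circCSPP1 they were 4.67, 3.92 and 5.26 FPKM, in the order of the replicates. Every lentivirus-circCSPP1 library was below every lentivirus-NC library, and the 3 lentivirus-NC values were spread more widely, with replicate 3 the lowest. The ratio of the means was 0.242, and the log2 difference was -1.81 (standard error 0.20, 95% interval -2.29 to -1.34). At the depth of the libraries these values stand for about 417 to 562 fragments per lentivirus-NC library and 116 to 129 per lentivirus-circCSPP1 library. An antisense gene, AC073072.1, shares 428 exonic bases with IL6 on the opposite strand, and whether the authors' counting used strand is not given in the sources used here.

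LIF, leukemia inhibitory factor, had the opposite direction and a much higher level. It measured 95.6, 90.1 and 86.6 FPKM with lentivirus-NC against 160, 140 and 139 FPKM with lentivirus-circCSPP1, in the order of the replicates. The lowest lentivirus-circCSPP1 library was thus above the highest lentivirus-NC library. The means were 90.8 ± 4.51 and 147 ± 12.01 FPKM (SD, n = 3), a ratio of 1.61 and a log2 difference of 0.68 (standard error 0.088). LIF lies on chromosome 22 from 30240447 to 30246851 on the minus strand and overlaps 2 antisense genes, which share 92 and 175 exonic bases with it.

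CLCF1, cardiotrophin-like cytokine factor 1, also measured higher in each lentivirus-circCSPP1 library, at 28.3, 24.9 and 30.7 FPKM against 20.01, 19.5 and 22.7 FPKM. The log2 difference was 0.41 (standard error 0.11, 95% interval 0.14 to 0.68), which did not pass an adjusted p of 0.05 over all tested genes. It passed without lentivirus-circCSPP1 replicate 1 (0.40) and without replicate 2 of that group, the lowest of the 3. CLCF1 shares 61 exonic bases with AP003419.1, a protein-coding gene on the same strand. IL11 measured 18.5, 17.2 and 18.9 FPKM with lentivirus-NC against 18, 16.4 and 13.7 FPKM with lentivirus-circCSPP1. The groups of IL11 overlapped, and the log2 difference of -0.18 had a 95% interval from -0.46 to 0.10. It was -0.26 without lentivirus-circCSPP1 replicate 1 and -0.08 without replicate 3 of that group.

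The balance of the ligands can be read within a library, where no scaling between libraries enters. A departure with GC content still can, as the median GC content of the coding transcripts was 45.1% in IL6 and 58.8% in LIF. A loess correction for GC content and length moved log2(FPKM + 1) in lentivirus-circCSPP1 replicate 1 from 2.50 to 2.715 (IL6) and from 7.33 to 7.20 (LIF). In replicates 2 and 3 of that group both genes moved the other way. The ratios below are uncorrected. The level of LIF was 4.61, 3.91 and 6.45 times that of IL6 in lentivirus-NC replicates 1, 2 and 3, and 34.3, 35.6 and 26.5 times in the lentivirus-circCSPP1 libraries. CLCF1 stood at 0.846 to 1.69 times the level of IL6 in lentivirus-NC and at 5.84 to 6.34 times in lentivirus-circCSPP1. The 4 ligands together summed to 149 ± 6.68 FPKM with lentivirus-NC against 195 ± 14.2 FPKM with lentivirus-circCSPP1 (SD, n = 3). IL6 held 12.8% ± 3.00 of that sum in lentivirus-NC and 2.37% ± 0.358 in lentivirus-circCSPP1, while LIF held 61.0% ± 0.819 and 75.1% ± 1.183 (SD, n = 3).

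The receptor genes overlapped between the groups. OSMR, the chain for oncostatin M, was the most abundant of the 10 genes at 352, 353 and 333 FPKM with lentivirus-NC against 321, 377 and 365 FPKM with lentivirus-circCSPP1, a log2 difference of 0.03 (95% interval -0.16 to 0.22) that ran from -0.01 to 0.10 as each library was left out, the latter without lentivirus-circCSPP1 replicate 1. IL6R measured 18.2, 18.02 and 18.2 FPKM with lentivirus-NC against 14.7, 18.2 and 17.9 FPKM with lentivirus-circCSPP1. Only replicate 1 of lentivirus-circCSPP1 was away from the others in IL6R, and the log2 difference was -0.10 (95% interval -0.35 to 0.16) with it and -0.0066 without it. LIFR was the receptor gene with the lowest level, at 9.33, 6.70 and 5.51 FPKM with lentivirus-NC against 5.46, 8.13 and 4.31 FPKM with lentivirus-circCSPP1, with a log2 difference of -0.24 and an interval from -0.80 to 0.32. The LIFR value was -0.46 without lentivirus-circCSPP1 replicate 2, -0.39 without lentivirus-NC replicate 3, and -0.06 without either lentivirus-NC replicate 1 or lentivirus-circCSPP1 replicate 3. The intervals of IL6R and OSMR leave room for small differences, and that of LIFR also for a large fall.

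IL6ST, which encodes the shared transducer gp130, depended on a single library. It measured 43.8, 45.0 and 43.4 FPKM in lentivirus-NC, which was a narrow range, and 33.3, 61.0 and 51.0 FPKM with lentivirus-circCSPP1, where replicate 1 lay under the lentivirus-NC range and replicates 2 and 3 over it. The log2 difference was 0.09 (standard error 0.20) over all libraries and 0.33 (standard error 0.085) without lentivirus-circCSPP1 replicate 1, where it passed an adjusted p of 0.05 in limma, as 28.5% of all tested genes then did. The median GC content of the coding transcripts of IL6ST was 39.2%, with 38.9% in LIFR the lowest among the 10 genes. After a loess correction of each library for GC content and length, the SD of IL6ST over the lentivirus-circCSPP1 libraries was 0.13 on the log2 scale, against 0.44 before it, and the log2 difference was 0.16, which did not pass the threshold. In the other receptor genes the same SD was 0.38 against 0.40 (LIFR), 0.25 against 0.16 (IL6R) and 0.023 against 0.12 (OSMR). The part of GC content in the spread was not tested. Nor were the receptor genes free of neighbors: antisense genes share 797 exonic bases with IL6ST and 629 with LIFR, and RICTOR shares 229 with OSMR on the opposite strand.

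STAT3, the transcription factor at the end of the pathway, measured 150, 153 and 156 FPKM with lentivirus-NC against 104, 116 and 114 FPKM with lentivirus-circCSPP1. The groups stood apart by more than their spread, with means of 153 ± 3.12 and 111 ± 6.31 FPKM (SD, n = 3) and a log2 difference of -0.46 (standard error 0.076). STAT3 lies on chromosome 17 from 42313324 to 42388568 on the minus strand, with no overlapping gene in GENCODE. STAT3 no longer passed the threshold when lentivirus-NC replicate 1, 2 or 3 or lentivirus-circCSPP1 replicate 3 was left out, settings in which 2.43% to 3.65% of all genes passed, while its log2 difference stayed between -0.49 and -0.41 over the 6 fits that each left out a library.

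SOCS3, the feedback inhibitor, measured 35.1, 36.6 and 33.7 FPKM with lentivirus-NC against 20.3, 17.3 and 18.04 FPKM with lentivirus-circCSPP1. The groups did not overlap, with a ratio of the means of 0.528 and a log2 difference of -0.89 (standard error 0.098). It lies on chromosome 17 from 78356778 to 78360077 on the minus strand, and no other gene overlaps it. Within each library the level of SOCS3 was 0.235, 0.239 and 0.216 of that of STAT3 in lentivirus-NC and 0.195, 0.149 and 0.159 of it in lentivirus-circCSPP1, so the 2 genes did not move in proportion. IL6, LIF and SOCS3 were past the threshold in each of the 17 alternatives run, the 6 fits without a library among them.

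**Figure D2:**
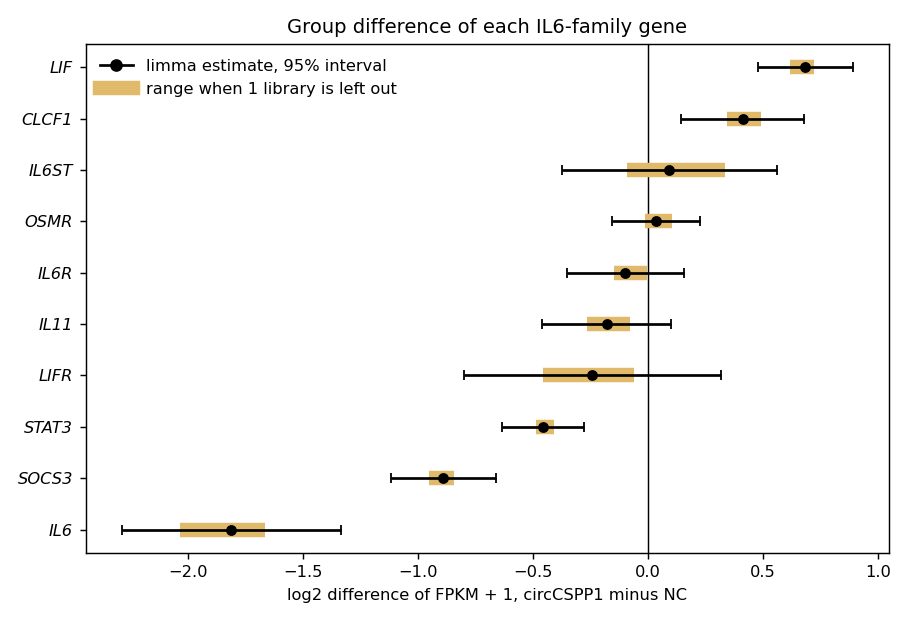
The log2 difference in FPKM + 1, lentivirus-circCSPP1 minus lentivirus-NC, of each of the 10 genes on the x axis, with the limma estimate and its 95% interval in black and the range over the 6 fits that each left out a library as a band. IL6 lies lowest at -1.81 and LIF highest at 0.68, and the band of IL6ST reaches from -0.09 to 0.33.

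FPKM is scaled to transcript length, so levels can also be ordered between genes. In lentivirus-NC the order of mean FPKM was OSMR (346), STAT3 (153), LIF (90.8), IL6ST (44.0), SOCS3 (35.1), CLCF1 (20.7), IL6 (19.1), IL11 (18.2), IL6R (18.1) and LIFR (7.18). CLCF1, IL6, IL11 and IL6R formed a run in which neighbors overlapped, and the other neighbors stood apart. In lentivirus-circCSPP1 LIF, at 139 to 160 FPKM, was above STAT3, at 104 to 116 FPKM, and CLCF1 was above SOCS3. IL6 came last there, at 3.92 to 5.26 FPKM, and overlapped the range of LIFR, at 4.31 to 8.13 FPKM. SOCS3, IL6R and IL11 formed the other run of neighbors that overlapped.

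**Figure D3:**
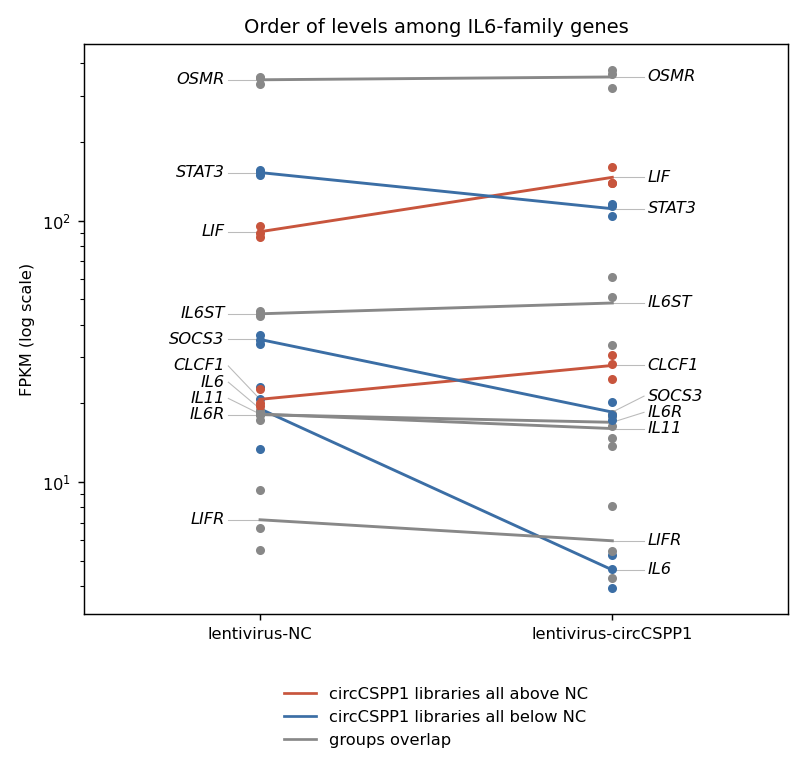
FPKM on a log axis in lentivirus-NC and lentivirus-circCSPP1, with 1 point per library and lines that join the group means of each gene. The lines of LIF and STAT3 cross, from 90.8 and 153 FPKM to 147 and 111 FPKM, and that of IL6 runs from 19.1 to 4.62 FPKM, below all the others.

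The promoters were searched for the motifs of NF-kB, C/EBP and AP-1, factors known to induce IL6, and for that of the STAT proteins. RefSeq promoters (GRCh38.p14, 250 bases before to 50 after the start) were at hand for 8 of the 10 genes, LIF and CLCF1 having none. Each was searched on both strands for GGG and TTTCC set apart by 2 bases (NF-kB), TTGCNNAA (C/EBP), TGANTCA (AP-1) and TTCNNNGAA (STAT). The 30 bases around 4 of the matches are printed with the match in capitals, on the strand of the gene.
IL6, NF-kB, chr7:22727117-22727146: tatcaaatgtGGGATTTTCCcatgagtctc
IL6, C/EBP, chr7:22727034-22727063: aggacgtcacaTTGCACAAtcttaataagg
IL11, AP-1, chr19:55370541-55370570: ggcagggagggTGAGTCAggatgtgtcagg
OSMR, AP-1, chr5:38846004-38846033: tgccccgcagcTGATTCAtagccccggccc

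Of 35116 promoters, 1.91% held the NF-kB letters, 10.5% the C/EBP letters, 7.71% the AP-1 letters and 7.66% the STAT letters. IL6 was the single gene of the 8 with the NF-kB letters, which begin 73 bases before the start of the RefSeq transcript, and its C/EBP letters begin 155 bases before that start. The GENCODE start of IL6 given above lies upstream of both matches. OSMR and LIFR also held the C/EBP letters. IL11, IL6R and OSMR held the AP-1 letters, and LIFR the STAT letters in 2 of its promoters. The windows of IL6ST, SOCS3 and STAT3 held none of the 4 sets of letters, which says only that the letters are not in these windows. By length, the 3′ UTR of IL6 was the richest of the 10 in the AU-rich pentamer ATTTA, a letter run common in short-lived mRNAs, with 6 copies in 429 nt or 13.99 per 1000 nt, against 1.47 (IL6R) to 5.56 (IL11) per 1000 nt in the other genes. By number of copies, LIFR (29) and IL6ST (26) held the most. All 10 held at least 1 copy, as did 67.5% of all 3′ UTRs. Of the longer AU-rich run TTATTTATT, IL6 held 0 copies. IL11 held 6, LIF, CLCF1 and OSMR 2 each and LIFR 1, and 8.17% of all 3′ UTRs held this run.

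Other genes of the pathway were taken from lists written from general knowledge, which leave out the 10 genes above. Of 92 genes in 6 lists, 66 were tested, and 17 passed an adjusted p of 0.05, 9 higher and 8 lower with lentivirus-circCSPP1, that is 25.8% beside 11.4% of all tested genes. Their median log2 difference was 0.04, and that of all tested genes was -0.03. The count was 24 both without lentivirus-circCSPP1 replicate 1, where 28.5% of all genes passed, and after the correction for GC content and length, where 28.9% did. It fell to 7, 8 and 8 when lentivirus-NC replicates 2, 1 and 3 were left out in turn, where 2.57%, 2.43% and 3.3% of all genes passed. It was 9 without lentivirus-circCSPP1 replicate 2 or replicate 3, where 9.41% and 3.65% of all genes passed. Because the lists were written with earlier results of these data known, nothing is read from their counts.

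Of the 11 remaining ligands and receptors of the family, 7 stayed under a mean of 1 FPKM. IL31RA, IL11RA, CNTF and IL27RA were tested, and 0 of these 4 passed the threshold in limma, beside 11.4% of all tested genes. Of these, 1 gene, IL31RA, had an unadjusted p under 0.05. OSM, which encodes oncostatin M, the ligand of the abundant OSMR, measured 0.22 to 0.40 FPKM with lentivirus-NC against 0.16 to 0.31 FPKM with lentivirus-circCSPP1. CNTFR, the receptor chain that CLCF1 binds, lay at 0.00 to 0.04 FPKM over the 6 libraries. IL11RA, the receptor of IL11, measured 18.2, 16.2 and 19.5 FPKM with lentivirus-NC against 23.0, 17.6 and 21.7 FPKM with lentivirus-circCSPP1, a log2 difference of 0.19 (limma, adjusted p = 0.38).

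Below gp130, 0 of the 12 kinases, adaptors and other STATs passed the threshold in limma, beside 11.4% of all tested genes. In this list 0 genes had an unadjusted p under 0.05, and the median log2 difference was -0.01. JAK1, the main kinase of the gp130 receptors, measured 31.4, 30.6 and 30.5 FPKM with lentivirus-NC against 25.9, 29.5 and 30.01 FPKM with lentivirus-circCSPP1, with an adjusted p of 0.47 in limma. GRB2, the adaptor toward RAS, had the largest standard error of the list (0.31 on the log2 scale), at 83.7, 87.2 and 35.5 FPKM with lentivirus-circCSPP1 against 39.4 to 40.8 FPKM in lentivirus-NC.

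Among 13 tested inhibitors of the pathway other than SOCS3, 3 passed, that is 23.1% beside 11.4% of all tested genes. CISH, an inhibitor of the SOCS family, fell from 1.95, 2.28 and 1.43 FPKM in lentivirus-NC to 1.01, 0.70 and 0.98 FPKM with lentivirus-circCSPP1, a log2 difference of -0.60 (standard error 0.14; limma, adjusted p = 0.039). PTPN6, the phosphatase SHP-1, fell from 41.5 ± 2.71 to 29.2 ± 4.28 FPKM (SD, n = 3), a log2 difference of -0.50 (limma, adjusted p = 0.040). SOCS7 rose from 20.9 ± 0.831 to 27.5 ± 1.83 FPKM (SD, n = 3; log2 difference 0.38; limma, adjusted p = 0.042). These calls are near the threshold and were lost in 7 to 9 of the alternatives, among them every fit that left out a library other than lentivirus-circCSPP1 replicate 1. SOCS1 measured 0.27 to 0.53 FPKM over the 6 libraries, under the filter on low values.

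The proteases that shed IL6R from the cell surface are ADAM17 and ADAM10. ADAM17 rose from 34.2, 36.1 and 35.8 FPKM to 45.0, 56.1 and 45.7 FPKM, a log2 difference of 0.45 (standard error 0.11; limma, adjusted p = 0.037), which lost the call in 8 alternatives, among them every fit that left out a library other than lentivirus-circCSPP1 replicate 1. ADAM10 measured 65.2, 68.0 and 68.2 FPKM with lentivirus-NC against 47.2, 64.5 and 60.5 FPKM with lentivirus-circCSPP1, with a log2 difference of -0.23 (limma, adjusted p = 0.26).

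**Figure D4:**
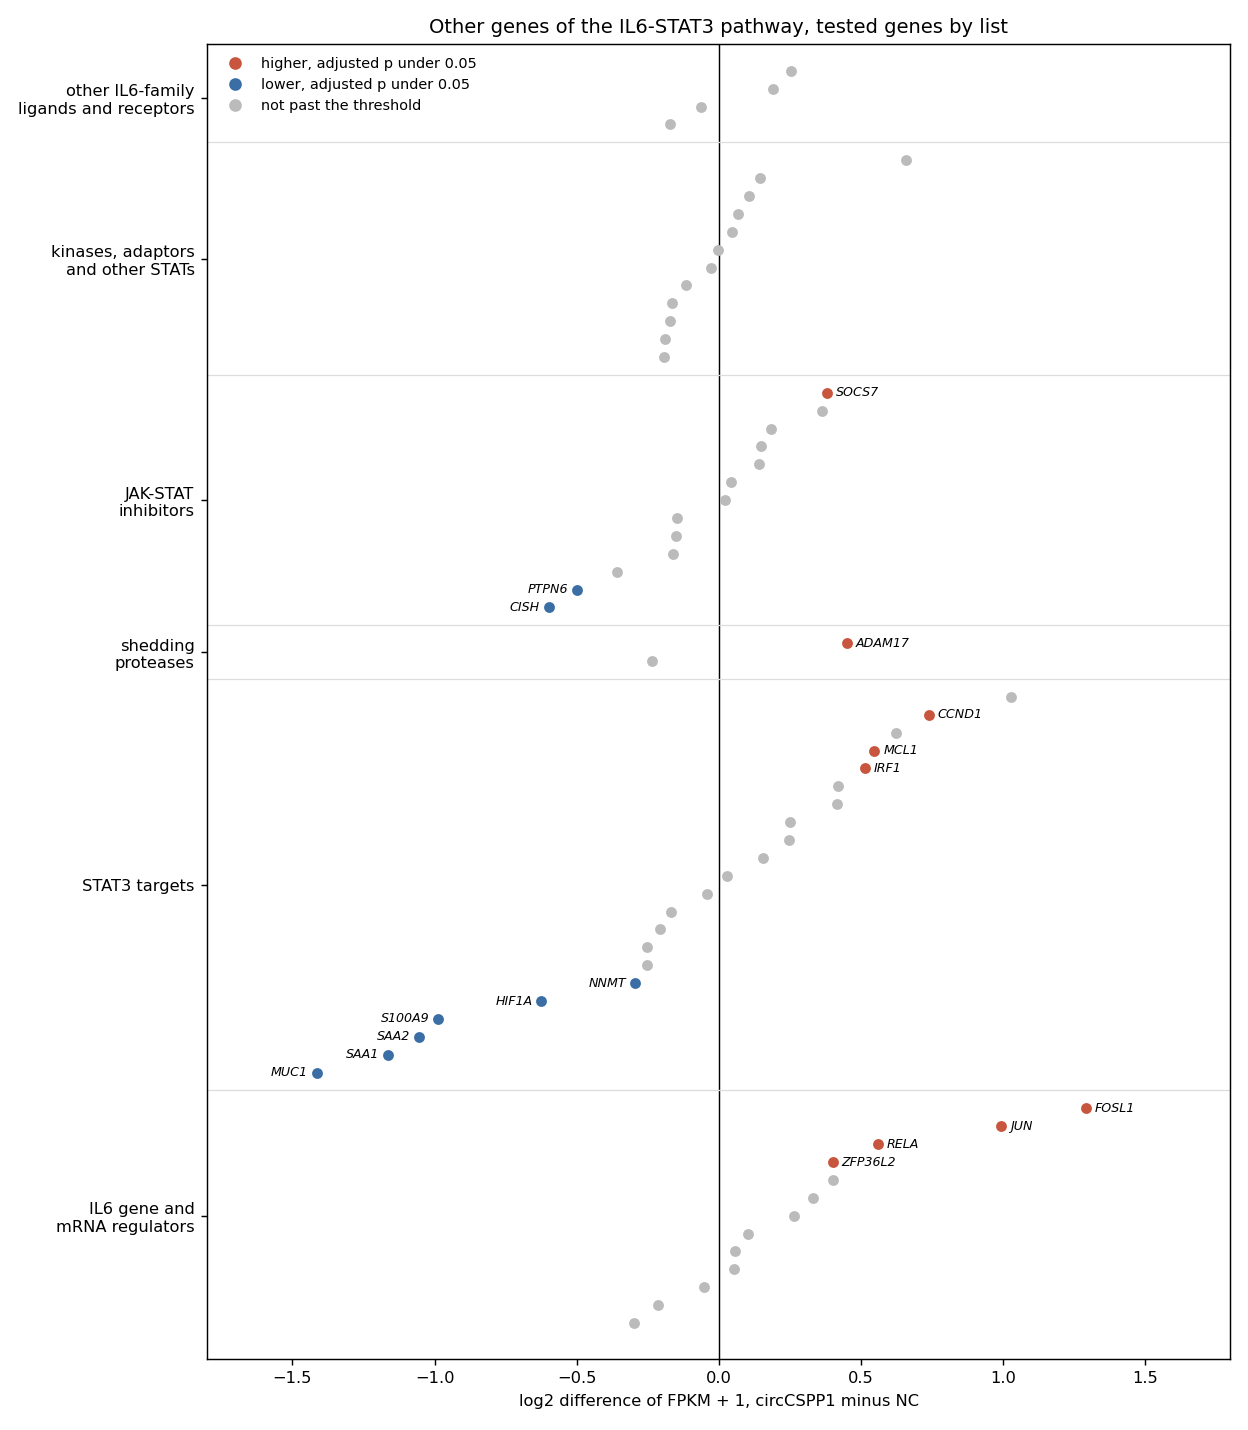
The log2 difference in FPKM + 1, lentivirus-circCSPP1 minus lentivirus-NC, of the 66 tested genes of the 6 lists, with 1 point per gene, and color and names for the genes past an adjusted p of 0.05 in limma. The genes past the threshold lie on both sides of 0 among the STAT3 targets, from MUC1 at -1.42 to CCND1 at 0.74, and on the right among the regulators of IL6, up to FOSL1 at 1.29.

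Genes known as targets of STAT3 went both ways. Of 37 listed, 22 were tested, and 9 passed the threshold, 3 higher and 6 lower, with a median log2 difference of -0.01. That is 40.9%, beside 11.4% of all tested genes (4.69% higher and 6.66% lower). Acute phase and secreted or surface proteins were among the lower ones. MUC1, a mucin of the apical membrane, fell from 22.4, 27.2 and 19.4 FPKM to 8.49, 6.38 and 9.15 FPKM, a log2 difference of -1.42 (standard error 0.17; limma, adjusted p = 0.0046). SAA1, serum amyloid A1, fell from 16.5, 19.2 and 19.5 FPKM to 8.13, 7.57 and 7.24 FPKM, a log2 difference of -1.16 (limma, adjusted p = 0.0023). SAA2 had a log2 difference of -1.05 with the same adjusted p in limma, but SAA1 and SAA2 are near-identical copies whose fragments the counting could have split, so their values are uncertain one by one.

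S100A9, a calcium-binding protein of inflammation, fell from 8.70, 7.84 and 10.9 FPKM to 3.93, 4.01 and 4.33 FPKM (log2 difference -0.99; limma, adjusted p = 0.0068), and its partner S100A8 was listed at 0 in all 6 libraries. HIF1A, the oxygen-sensitive transcription factor, fell from 134 ± 2.08 to 87.1 ± 13.99 FPKM (log2 difference -0.62; limma, adjusted p = 0.021), a call lost in 6 alternatives, among them each fit without 1 lentivirus-NC library and that without lentivirus-circCSPP1 replicate 3, and the difference was -0.48 without lentivirus-circCSPP1 replicate 1. NNMT, the sixth of the lower genes, had a log2 difference of -0.29 (limma, adjusted p = 0.049). The calls of MUC1, SAA1, SAA2 and S100A9 held in each of the 17 alternatives.

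The higher STAT3 targets were CCND1, MCL1 and IRF1. CCND1, cyclin D1, rose from 148, 132 and 152 FPKM to 227, 255 and 239 FPKM, a log2 difference of 0.74 (standard error 0.086; limma, adjusted p = 0.0045), and kept the call in each of the 17 alternatives. MCL1, an inhibitor of apoptosis, had a log2 difference of 0.55 (limma, adjusted p = 0.048), or 0.71 without lentivirus-circCSPP1 replicate 1, that lost the call in 11 alternatives, and IRF1, a transcription factor of the interferon response, one of 0.51 (limma, adjusted p = 0.039) that lost it in 8, for both genes in every fit that left out a library other than lentivirus-circCSPP1 replicate 1, among others. PIM1 (0.25), PIM3 (0.42), BCL3 (0.42) and JUNB (0.16), which are direct targets in many cells, did not pass the threshold, nor did FOS (0.62). All but JUNB of these measured higher in each lentivirus-circCSPP1 library than in any lentivirus-NC library. Their adjusted p in limma was 0.23 (PIM1), 0.072 (PIM3), 0.14 (BCL3) and 0.13 (FOS). Over the 22 tested targets the groups did not overlap in 13, in either direction, beside 36.4% of all tested genes. The liver acute phase genes FGA, FGB, FGG, CRP, HP, LBP and HAMP were at 0.00 to 0.20 FPKM in every library. BCL2L1 and MYC varied too widely to be placed, with 65.4, 168 and 63.7 FPKM against 230, 105 and 250 FPKM for BCL2L1 and a lentivirus-circCSPP1 range of 14.97 to 72.4 FPKM for MYC.

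Of the regulators of the IL6 gene and of the decay of its mRNA, 13 were tested and 4 passed, all higher, with a median log2 difference of 0.27. That is 30.8%, beside 11.4% of all tested genes (4.69% higher and 6.66% lower). FOSL1, a subunit of AP-1, rose from 62.0, 64.1 and 68.8 FPKM to 146, 180 and 157 FPKM, a log2 difference of 1.29 (standard error 0.10; limma, adjusted p = 0.0013). JUN, its partner, rose from 19.3 ± 0.774 to 39.3 ± 1.65 FPKM (SD, n = 3; log2 difference 0.99; limma, adjusted p = 0.0019). RELA, the NF-kB subunit p65, rose from 82.6, 75.1 and 71.8 FPKM to 120, 108 and 112 FPKM (log2 difference 0.56; limma, adjusted p = 0.010), a call lost without lentivirus-NC replicate 2 or replicate 3.

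ZFP36L2, which binds AU-rich elements and promotes decay, rose from 9.38 ± 0.378 to 12.7 ± 0.618 FPKM (SD, n = 3; log2 difference 0.40; limma, adjusted p = 0.042), and lost the call in 6 alternatives, among them every fit that left out a library other than lentivirus-circCSPP1 replicate 1. ZC3H12A, the nuclease Regnase-1 that cleaves IL6 mRNA, measured 55.3 to 56.4 FPKM with lentivirus-NC against 60.8, 40.8 and 44.5 FPKM with lentivirus-circCSPP1 (log2 difference -0.21; limma, adjusted p = 0.38). NFKBIZ, a cofactor of NF-kB at the IL6 promoter, had lower values in each lentivirus-circCSPP1 library, 13.1 to 16.8 against 17.3 to 19.1 FPKM, with a log2 difference of -0.30 (limma, adjusted p = 0.14). The inducers IL1A, IL1B and TNF were at 0.00 to 0.29 FPKM.

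Among the 172 tested genes outside the 10 with an absolute log2 difference of at least 1, the 5 whose log2(FPKM + 1) followed IL6 most closely over the 6 libraries were FBP1, MUC1, NID2, CNTN1 and CDH1, with a Pearson r of 0.987 to 0.993 given as a description. The likeness rests on the gap between the groups, which any gene chosen for a fall shares. Within lentivirus-NC, replicate 3 was the lowest library in each of the 5 genes, as it was in IL6. The choice by correlation over the same libraries favors such a shared order, so nothing is read from it. FBP1 measured 13.6, 14.1 and 11.7 FPKM with lentivirus-NC against 5.60, 4.67 and 5.96 FPKM with lentivirus-circCSPP1, and NID2 measured 3.58, 4.12 and 2.45 FPKM and then 1.04, 0.69 and 0.77 FPKM.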

How the data were processed

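Poly(A) RNA from 6 DU145 samples went into paired-end libraries. The values deposited by the authors are FPKM in 1 table, rounded to 2 decimals, for 19727 genes; the submitters' processing notes name hg38, and the aligner, the counting program and the annotation are not given in the sources used here. An FPKM value also depends on the share of the library that other genes take. Of the columns with sample values, 0 went unused. Depth was computed from genes with 1 transcript under 800 nt, whose FPKM times length fell on whole multiples for 91.5% to 98.4% of values, with a tolerance of 0.15 of a step (30% by chance).

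Values were taken to log2(FPKM + 1), on which the change of low genes is understated, and 12322 genes averaging 1 FPKM or more were fitted with limma 3.58.1 in R 4.3.3 (trend, two-sided, no covariate). The study states no test for its RNA-seq thresholds. On simulated data for the 12322 genes, 98% of 100 genes changed by a log2 value of 2 and 71% of 100 changed by 1 were recovered, and 0.066% of unchanged genes were called. The simulated noise was normal and independent between genes, without the departure with GC content of the lentivirus-circCSPP1 libraries. These shares are therefore not error rates for the real libraries. Transcripts and coordinates came from GENCODE release 29 (GRCh38); 19500 genes had a complete coding transcript. Figures were drawn with matplotlib 3.10.9.

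The 10 genes, the lists and the tests were chosen with earlier results of these data known. Named beside the 10 were up to 5 genes past the threshold per list and direction, and the 5 genes most like IL6 (Pearson correlation over 6 libraries, among those with an absolute log2 difference of at least 1). Other genes in the text, such as NNMT and those that did not pass, were named after their values were seen. Alternatives were other pseudocounts (0.1 and 0.01), filters (none, or a mean of at least 5 FPKM), scalings (TPM, median ratio, quantile), variance estimates, a replicate block, and fits without each library in turn; a correction for GC content and length was added after seeing the data. Values of some genes and some sequence matches are not reported here.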

Additional observations from a re-analysis of the deposited data

How the results depend on the processing

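The difference of IL6 kept its direction and its side of the threshold in each of the 17 alternatives, from -2.03 to -1.66 on the log2 scale, and leaving out a library gave that same range. The number of the 10 genes past the threshold was 4 and ran from 3 to 6 when a library was left out. The number of wider pathway genes past the threshold was 17; it was 10 without moderation of the variance and 10 with the replicate number as a block, and it ran from 7 to 24 when a library was left out. Over all tested genes the count of 1399 became 834 without moderation, 923 with the block, 3541 after the GC content and length correction and 300 to 3512 when a library was left out; the cause was not tested, although fewer libraries leave fewer degrees of freedom. No scaling moved the median of all genes by over 0.1. The deviations of same-numbered libraries correlated at 0.073, 0.0065 and 0.057 over genes. Lentivirus-NC replicates 1 and 3 correlated best with their own number, and replicate 2 did not. These small values cannot decide whether the replicate numbers pair the samples, and the main fit used no pairing. A rise of IL6ST and of CLCF1 past the threshold came without lentivirus-circCSPP1 replicate 1, and CLCF1 also passed without replicate 2 of that group, after rescaling to TPM and after the GC content and length correction. Genes with a mean under 1 FPKM, such as OSM and SOCS1, were left out by the filter on low values and entered only the fit without it.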
